A study of Homo sapiens with 12 samples.

Results

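The kinesin motor genes were taken from the count table by name: every row whose symbol was KIF followed by a number and optional letters, or KLC followed by a digit, leaving out the associated protein KIFAP3, antisense genes and pseudogenes. This gave 43 genes of the 28278 in the table. They were sorted by known role into 13 mitotic kinesins, 17 transport kinesins (cargo-carrying motors and the light chains of kinesin-1) and 13 other kinesins (regulators of microtubule ends, cilia and signalling, or motors of less settled function). Of these, 32 passed the filter on low counts in both cell lines (at least 1 CPM, the usual count scaled to library size, in at least 3 libraries): 11 mitotic, 13 transport and 8 other kinesins.

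Kinesins are motor proteins that use ATP to walk along microtubules or to take their ends apart. Mitotic kinesins build the spindle, move chromosomes and organise the midzone where the daughter cells separate, and cells make most of them shortly before division. Transport kinesins carry vesicles, endosomes, lysosomes, mitochondria and ciliary proteins, usually towards microtubule plus ends, and are needed by dividing and resting cells alike.

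The study asked how cancer cells adapt to hydroxychloroquine (HCQ), a weak base that collects in lysosomes and blocks autophagy. RNA of cells labelled OVCAR3 (ovarian cancer) and CCL218 (colorectal cancer) was sequenced after poly(A) selection. HCQ-evolved cells had been given 15 pulses of HCQ of 48 h each, grew for 7 days without drug, and were labelled passage 15. Control cells were passaged without HCQ and were labelled passage 19, so treatment and passage label cannot be told apart. Each of the 4 groups had 3 pools, made by joining the wells of the left (L), middle (M) or right (R) part of a single plate. There was thus 1 plate per line and condition, and p-values measure only the spread between pools of a plate.

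Libraries held 31147822 to 59965861 counts. Levels of long transcripts differed between pools: the Spearman correlation across genes of a pool's deviation from its line's mean with transcript length ran from -0.51 in control CCL218 pool L to 0.56 in HCQ-evolved OVCAR3 pool R, and was 0.52 in control OVCAR3 pool M. Genes are not independent replicates, and these values are descriptions only. Against the labels, the ovarian transcription factor gene SOX17 was at 0 counts in every pool, and WT1 averaged 0.296 CPM in control OVCAR3 pools, where PAX8 was at 12.02 CPM. The intestinal genes LGALS4, VIL1 and HNF4A averaged 730.5, 242 and 76.5 CPM in the same pools, and 1047, 188 and 117 CPM in control CCL218 pools, where the colorectal keratin gene KRT20 had 4 counts or fewer in every pool. Marker sums also differed between control and HCQ-evolved pools, except the colorectal sum in CCL218. The colorectal sum averaged 1073 CPM in control and 531.5 CPM in HCQ-evolved OVCAR3. In CCL218 it averaged 1399 and 1332 CPM, and the pools overlapped. The ovarian sum averaged 599 and 382 CPM in OVCAR3 and 675 and 408 CPM in CCL218. Control pool L had the highest ovarian sum in both lines, at 801 CPM in OVCAR3 and 981 CPM in CCL218. Control CCL218 pools M and R were at 525 and 518 CPM. Of 7 tested colorectal markers, 4 were called higher in CCL218 (3.82% of all genes were) and 0 in OVCAR3, where 2 were lower at an unadjusted p under 0.05. The part of these markers in the kinesin levels was not tested. Lines are therefore named by their labels only. Markers of fibroblasts, endothelium and leukocytes were at or near 0 in all groups except LYZ, at 1783 to 2402 CPM in group means, and low levels of COL1A1 and PECAM1.

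The promoters of the mitotic class are shown first, because they share sequence that the choice of members did not use. RefSeq promoter windows on GRCh38.p14, from 250 bases before to 50 bases after each annotated start, were found for 35 of the 43 members. They were searched on both strands for TTTGAA, the cell cycle genes homology region (CHR) through which many late cell cycle genes are known to be controlled, for the variant TTCGAA, which reads alike on both strands, and for CCAAT, the box bound by NF-Y. A CCAAT match and a TTTGAA match may share a base. TTTGAA was found in 9 of 13 mitotic kinesins (69.2%), in 1 of 13 transport kinesins and in 0 of 9 other kinesins, against 15.2% of all 35116 windows of this length, 18.2% of all genes with a window and 13.3% of genes tested in OVCAR3. CCAAT was found in 10 of 13 mitotic, 4 of 13 transport and 3 of 9 other kinesins, against 34.6% of all windows, 39.7% of all genes with a window and 43.2% of genes tested in OVCAR3. TTCGAA was found in KIF22 and KIF24, against 1.45% of all windows, 1.82% of all genes with a window and 2.3% of genes tested in OVCAR3. The matches of mitotic kinesins, with the 6 bases of the motif in capitals, are given 5′ to 3′ on the strand that reads as searched, with the transport kinesin KIF5B last for comparison:
KIF4A, chrX:70290058-70290087, plus strand: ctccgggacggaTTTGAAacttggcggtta
KIF4B, chr5:155013746-155013775, plus strand: ctctgggagggaTTTGAAacttggcggtta
KIF11, chr10:92593090-92593119, minus strand: tcggcgcctcaaTTTGAAaaagagacagag
KIF14, chr1:200620733-200620762, plus strand: agaaggccgcaaTTTGAAtgggcgccccgc
KIF15, chr3:44761747-44761776, minus strand: gatggccgcaaaTTTGAAtttggcgcttgg
KIF18A, chr11:28108149-28108178, minus strand: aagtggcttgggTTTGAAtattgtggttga
KIF18B, chr17:44947754-44947783, minus strand: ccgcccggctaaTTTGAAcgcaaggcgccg
KIF20B, chr10:89701602-89701631, plus strand: tggccgccattgTTTGAAtttgaaaacggt
KIF23, chr15:69414282-69414311, plus strand: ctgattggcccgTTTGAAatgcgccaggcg
KIF22, chr16:29790712-29790741, plus strand: ggcaccggggaaTTCGAAtgggagaggcgg
KIF5B, chr10:32056548-32056577, minus strand: agtgcagtaaaaTTTGAAtctgcgaccccg

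KIF4B, a retrocopy of KIF4A, held the same motif with nearly the same flanks. In KIF20B a further TTTGAA followed the printed match directly. The CHR matches of mitotic kinesins began between 55 bases before and 31 bases after the start, whereas that of KIF5B began 140 bases before it. A match describes letters only and does not show a site in use.

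**Figure D1:**
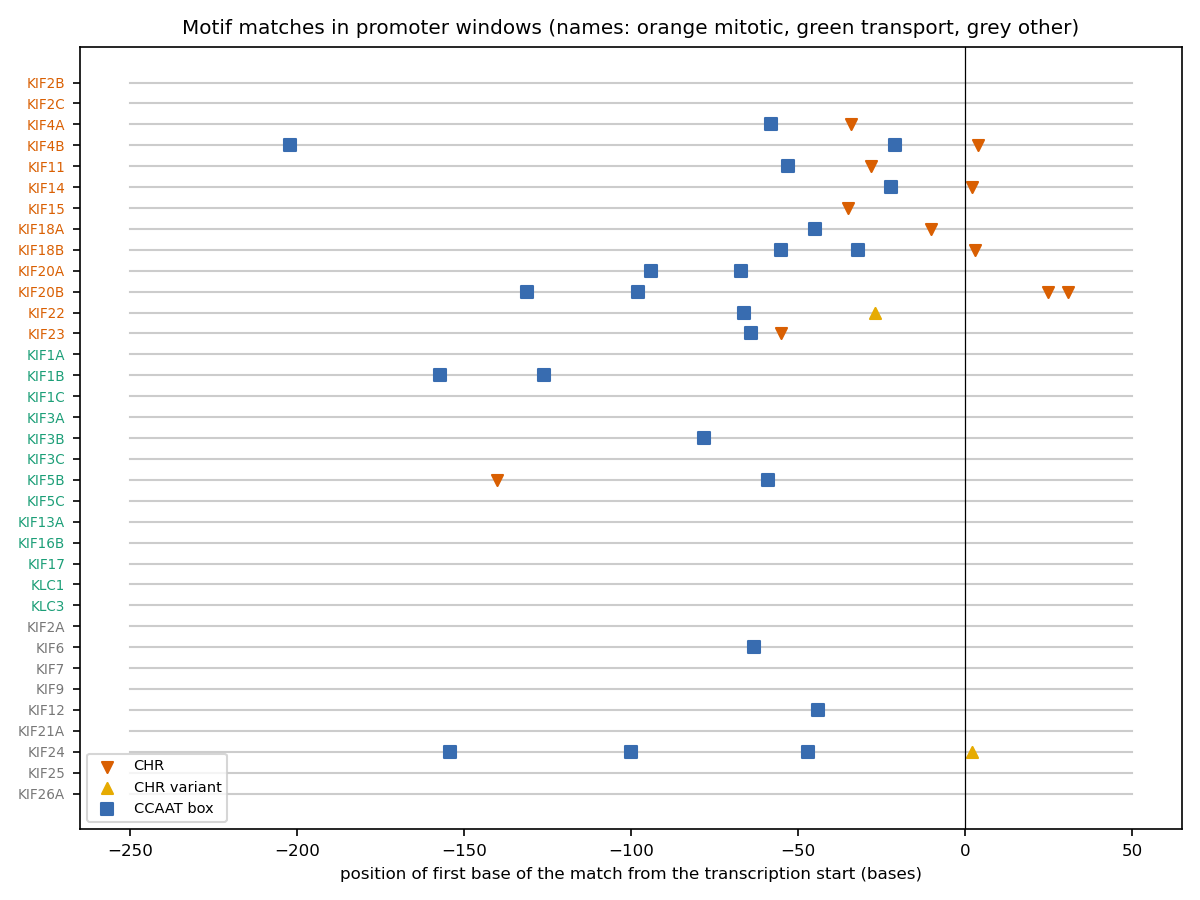
Motif matches in the promoter windows of the 35 kinesin genes with a window; each line is 1 gene, the horizontal axis is the distance in bases from the annotated start, and symbols mark the first base of TTTGAA (CHR), TTCGAA (CHR variant) and CCAAT on either strand. TTTGAA lies near the start in 9 of 13 mitotic kinesins and is absent from these windows in all transport and other kinesins except KIF5B. For genes with several windows, such as KIF12 and KIF22, 1 is drawn.

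Whole 250-base stretches before the start are given for 5 genes: KIF23 and KIF4A, which hold both motifs, KIF20A, which holds only CCAAT, and KIF2C and KIF16B, which were called below and hold none of the motifs. Capitals mark the matches on either strand:
KIF23 promoter, chr15:69414099-69414348, plus strand: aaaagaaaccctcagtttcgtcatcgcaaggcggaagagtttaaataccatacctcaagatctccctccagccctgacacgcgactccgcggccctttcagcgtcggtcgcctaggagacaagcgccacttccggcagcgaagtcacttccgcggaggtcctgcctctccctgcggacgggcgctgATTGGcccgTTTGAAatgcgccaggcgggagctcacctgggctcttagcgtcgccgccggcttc
KIF4A promoter, chrX:70289854-70290103, plus strand: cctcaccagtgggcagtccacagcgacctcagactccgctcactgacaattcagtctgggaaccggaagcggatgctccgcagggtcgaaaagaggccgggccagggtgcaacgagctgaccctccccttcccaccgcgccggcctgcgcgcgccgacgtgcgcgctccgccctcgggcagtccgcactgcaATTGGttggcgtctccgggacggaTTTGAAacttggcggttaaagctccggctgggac
KIF20A promoter, chr5:138178862-138179111, plus strand: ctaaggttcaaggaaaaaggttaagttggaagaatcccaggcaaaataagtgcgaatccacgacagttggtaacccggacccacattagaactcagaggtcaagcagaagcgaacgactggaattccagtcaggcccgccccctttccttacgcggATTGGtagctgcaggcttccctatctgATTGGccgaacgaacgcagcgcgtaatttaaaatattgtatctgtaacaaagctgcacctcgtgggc
KIF2C promoter, chr1:44739587-44739836, plus strand: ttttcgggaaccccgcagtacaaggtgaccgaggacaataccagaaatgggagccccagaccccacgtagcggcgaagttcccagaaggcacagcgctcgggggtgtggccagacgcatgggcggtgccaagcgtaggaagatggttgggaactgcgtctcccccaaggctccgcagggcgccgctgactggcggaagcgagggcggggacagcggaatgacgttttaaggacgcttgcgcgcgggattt
KIF16B promoter, chr20:16573449-16573698, minus strand: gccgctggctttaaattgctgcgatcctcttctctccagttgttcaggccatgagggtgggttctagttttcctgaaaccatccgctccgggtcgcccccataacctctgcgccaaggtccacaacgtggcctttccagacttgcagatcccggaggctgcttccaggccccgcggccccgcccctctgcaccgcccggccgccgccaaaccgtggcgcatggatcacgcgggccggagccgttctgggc

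Most mitotic kinesins had log2 fold changes above 0, HCQ-evolved over control, although KIF2C alone of the 11 passed the test in each line, and transport kinesins lay on both sides of 0. In OVCAR3 all 11 tested mitotic kinesins had a log2 fold change above 0 (51.6% of all genes tested did), with a median of 1.02 and a range of 0.66 to 1.24, while the 13 transport kinesins had a median of 0.0074 and ranged from -0.46 to 0.33. The medians thus lay 1.01 apart, and the median over all 12204 genes tested was 0.016. In CCL218 the medians were 0.45 for mitotic and 0.15 for transport kinesins, 0.30 apart, against -0.017 over 12241 genes. Of the mitotic kinesins there, 10 of 11 were above 0 (48.3% of all genes tested), KIF18A being the exception. Genes are no replicates of a condition, so these medians carry no test. Long transcripts moved between pools. The median transcript length was 4088 bases for mitotic and 5866 bases for transport kinesins, against 3230 bases over genes tested in OVCAR3. After removal of each library's trend with length and GC content, the mitotic medians were 0.95 in OVCAR3 and 0.35 in CCL218, and the transport medians -0.013 and 0.074.

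The same contrast can be read in single pools as the mean log2 CPM of the mitotic kinesins minus that of the transport kinesins. In OVCAR3 this difference was -0.11, -0.14 and -0.20 in control pools L, M and R and 0.74, 0.81 and 1.12 in HCQ-evolved pools. In CCL218 it was -0.11, -0.21 and -0.17 in control pools and 0.14, 0.20 and 0.18 in HCQ-evolved pools. Control and HCQ-evolved pools did not overlap in either line, control pools of both lines covered a like range, and every HCQ-evolved OVCAR3 pool lay above every HCQ-evolved CCL218 pool. By the mitotic mean alone, HCQ-evolved OVCAR3 pools L and M (6.043 and 6.052) were level with HCQ-evolved CCL218 pools M and R (6.035 and 6.046). Their transport means (5.30 and 5.24) lay below those of the HCQ-evolved CCL218 pools (5.74 to 5.87). The summed level of the tested mitotic kinesins was 512, 575 and 495 CPM in control OVCAR3 pools and 862, 884 and 1343 CPM after evolution. In CCL218 it was 529.7, 627 and 620.2 CPM and then 751, 814 and 821 CPM. Pool R of HCQ-evolved OVCAR3, which was also the pool richest in long transcripts, was the highest for 10 of 11 mitotic kinesins and for 10 of 13 transport kinesins. Without it the OVCAR3 medians were 0.64 for mitotic and -0.24 for transport kinesins.

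**Figure D2:**
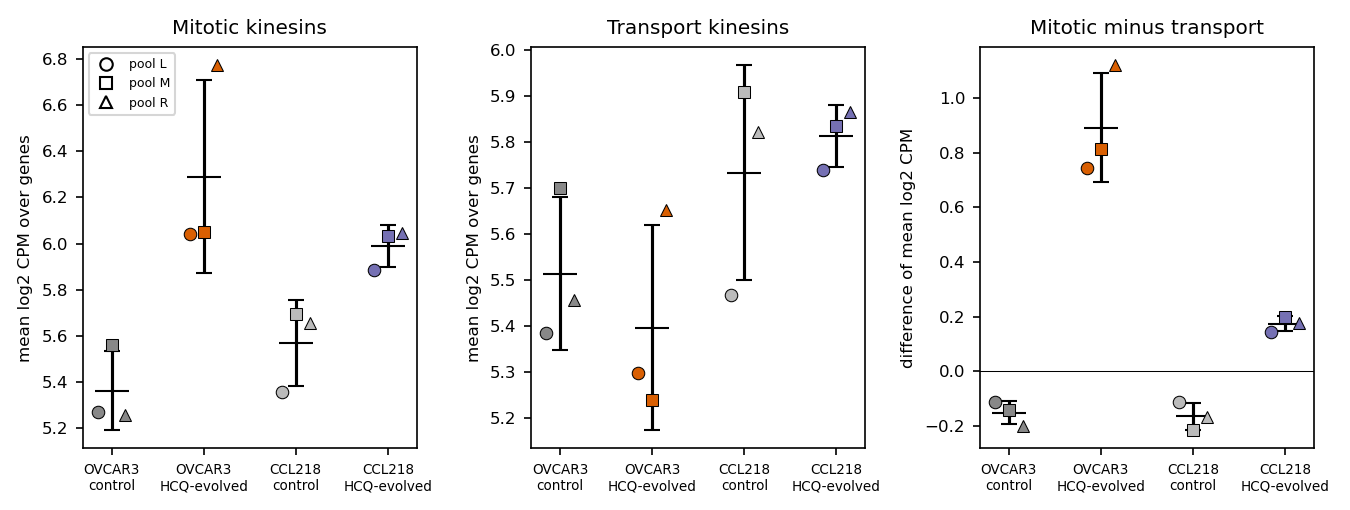
Mean log2 CPM per pool of the 11 tested mitotic kinesins (left), of the 13 tested transport kinesins (middle), and their difference (right), in the 4 groups; symbols are pools L, M and R, and bars give the mean and SD of 3 pools. In both lines the HCQ-evolved pools lie above the control pools in the left and right panels, and the control pools of the right panel all lie between -0.21 and -0.11.

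Genes were tested one at a time by quasi-likelihood F tests in edgeR, fitted over all genes of a line, with Benjamini-Hochberg adjustment over those genes and calls at an adjusted p under 0.05. In OVCAR3, 1 of 32 kinesins was called, KIF2C, which was higher (1.86% of all genes tested were called, 0.647% higher and 1.21% lower). In CCL218, 3 of 32 were called: KIF2C and KIF16B were higher (6.46% of all genes were called, 3.82% higher) and the light chain KLC2 was lower (2.64% lower). Before adjustment, p was under 0.05 for 10 higher and 2 lower kinesins in OVCAR3 (8.38% and 7.87% of all genes) and for 9 higher and 5 lower kinesins in CCL218 (12.5% and 12.7%). All 10 in OVCAR3 and 6 of the 9 in CCL218 were mitotic kinesins. The CCL218 pools were read as paired by plate position, an assumption that the correlations between pools do not settle. With position as a block 8 kinesins were called there: KIF2C, KIF11, KIF14, KIF20B and KIF16B higher and KLC2, KIF3C and KIF12 lower (7.82% of all genes were called higher and 6.43% lower). With the length and GC trend removed, 7 kinesins were called in OVCAR3, all mitotic (8.72% of all genes), and 11 in CCL218, 7 higher and 4 lower (19.3%).

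**Figure D3:**
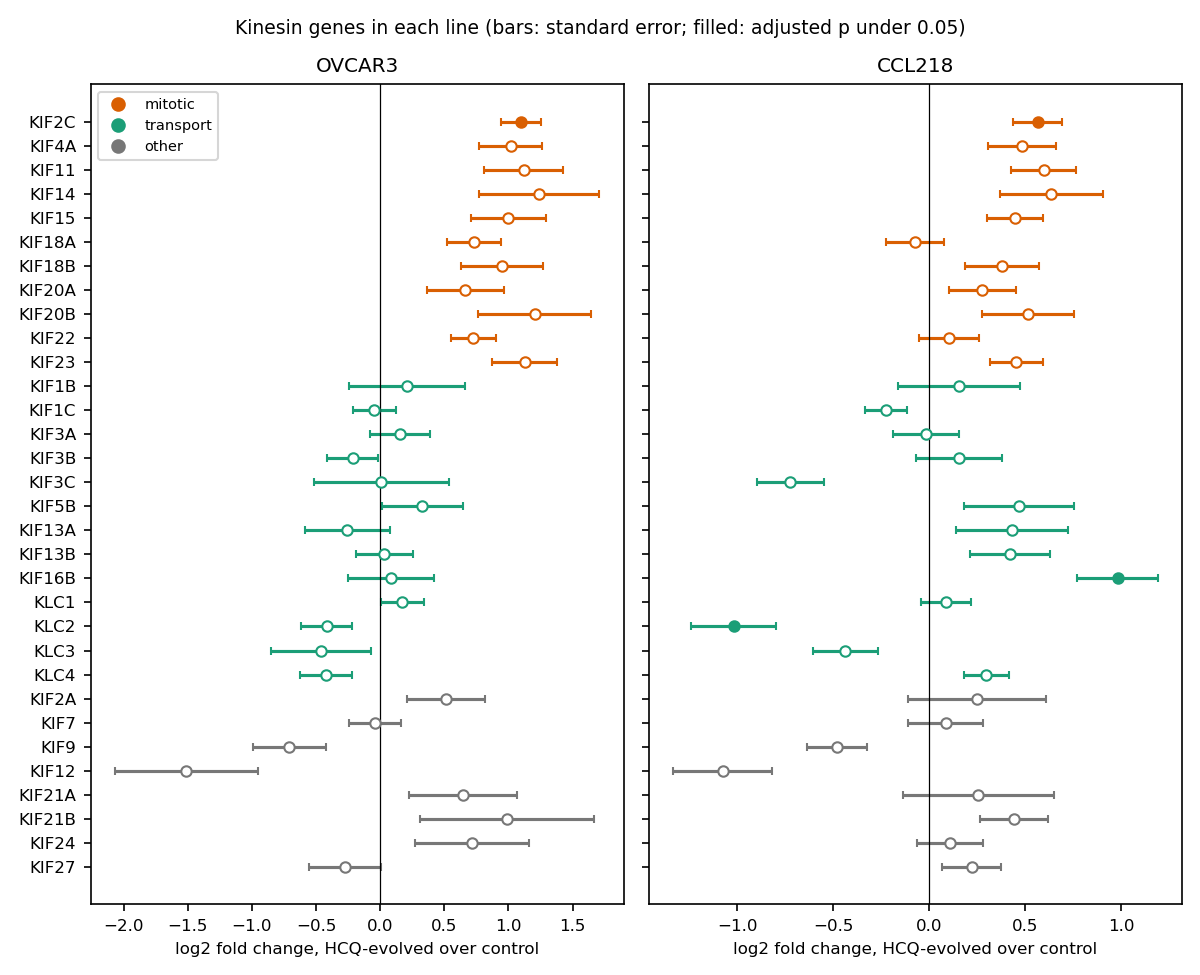
Log2 fold change, HCQ-evolved over control, of the 32 tested kinesin genes in OVCAR3 (left) and CCL218 (right), with standard errors; colours give the class and filled symbols an adjusted p under 0.05. Mitotic kinesins lie between 0.66 and 1.24 in OVCAR3 and between -0.076 and 0.64 in CCL218, and transport kinesins lie on both sides of 0.

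KIF2C (chr1:44739818-44767767, plus strand; GENCODE 44 on hg38, as for all gene positions here) encodes a motor that takes microtubule ends apart at centromeres and corrects faulty attachments of chromosomes. It was at 77.5, 73.6 and 76.2 CPM in control OVCAR3 pools L, M and R and at 149.5, 164 and 166 CPM in HCQ-evolved pools. In CCL218 its levels were 63.3, 72.9 and 78.2 CPM in control pools and 108, 107 and 102 CPM in HCQ-evolved pools. The pools did not overlap in either line, and in OVCAR3 the spread within groups was small beside the 2.11-fold difference of the means. Its log2 fold change was 1.10 ± 0.16 (SE; adjusted p = 0.0218) in OVCAR3 and 0.56 ± 0.13 (SE; adjusted p = 0.0433) in CCL218. KIF2C was the only kinesin called in both lines by these fits. DESeq2 called KIF11, KIF15 and KIF23 higher and KIF12 lower in both as well, and its share of all genes called is not given here. Removal of the length and GC trend called KIF11, KIF15, KIF23 and KIF4A in both lines. The OVCAR3 call was lost (adjusted p up to 0.139) when any pool other than HCQ-evolved R was left out, and with position as a block (adjusted p = 0.111). The CCL218 call was lost (adjusted p up to 0.222) when any pool other than control L was left out, and when no filter was applied (adjusted p = 0.0559).

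KIF23 (chr15:69414246-69448427, plus strand), the motor subunit of centralspindlin in the midzone, was at 60.4, 83.2 and 73.5 CPM in control OVCAR3 pools and 132, 131 and 205 CPM in HCQ-evolved pools. The pools did not overlap, and pool R was highest. Its log2 fold change of 1.13 ± 0.25 (SE; adjusted p = 0.0742) did not pass the threshold, but passed without pool R (0.86, adjusted p = 0.0468). In CCL218 it was at 62.95, 80.4 and 81.3 CPM and then 96.6, 105 and 106 CPM, again without overlap, and its log2 fold change was 0.45 ± 0.14 (SE; adjusted p = 0.103).

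KIF4A (chrX:70290104-70420886, plus strand) is a chromosome-bound motor that also sets the length of midzone microtubules. Its levels in OVCAR3 were 46.6, 58.4 and 50.1 CPM in control and 87.4, 86.2 and 136 CPM in HCQ-evolved pools, and in CCL218 45.3, 64.2 and 70.1 and 79.3, 86.6 and 85.3 CPM. Neither line showed overlap, yet neither log2 fold change passed, at 1.02 ± 0.25 (SE; adjusted p = 0.0880) and 0.48 ± 0.18 (SE; adjusted p = 0.149). Reads of KIF4A and of its near-identical retrocopy KIF4B could be divided in counting, and KIF4B held at most 16 counts in a pool.

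KIF11 (chr10:92574105-92655395, plus strand), also called Eg5, pushes the spindle poles apart, and KIF15 (chr3:44761721-44873376, plus strand) can maintain a bipolar spindle beside it. KIF11 was at 52.6, 71.6 and 51.8 CPM in control OVCAR3 pools and 94.3, 100.1 and 182 CPM after evolution. The CCL218 pools had 63.1, 92.3 and 84.3 and then 108, 127 and 128 CPM. Neither line showed overlap, and its log2 fold change was 1.12 ± 0.31 (SE; adjusted p = 0.120) in OVCAR3 and 0.60 ± 0.17 (SE; adjusted p = 0.0871) in CCL218, the latter called with position as a block (adjusted p = 0.0216). KIF15 was at 19.02, 23.6 and 18.1 CPM and then 32.4, 30.6 and 56.5 CPM in OVCAR3, and at 21.4, 28.5 and 26.4 and then 32.5, 35.5 and 36.1 CPM in CCL218. Its pools were apart in both lines as well, and its adjusted p was 0.137 and 0.117. Without HCQ-evolved OVCAR3 pool R the log2 fold changes were 0.73 for KIF11 and 0.64 for KIF15.

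KIF22 (chr16:29790727-29805385, plus strand), a motor on chromosome arms that pushes them towards the spindle equator, was not called in either line. It was at 91.3, 66.9 and 84.3 CPM in control and 132, 139.8 and 124 CPM in HCQ-evolved OVCAR3 pools, which did not overlap. In CCL218 the pools overlapped, at 96.8, 69.9 and 75.7 and 93.3, 83.2 and 84.3 CPM. The log2 fold changes were 0.73 ± 0.18 (SE; adjusted p = 0.0880) and 0.10 ± 0.15 (SE; adjusted p = 0.704). KIF22 was the mitotic kinesin whose HCQ-evolved OVCAR3 pool R was the lowest of the 3.

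The remaining 5 tested mitotic kinesins were the midzone and cytokinesis motors KIF14, KIF20A and KIF20B and the plus-end regulators KIF18A and KIF18B. In OVCAR3 their log2 fold changes were between 0.66 (KIF20A) and 1.24 (KIF14), with adjusted p from 0.131 to 0.333. Without HCQ-evolved pool R they were 0.57 for KIF14, 0.56 for KIF20B, 0.34 for KIF20A, 0.56 for KIF18B and 0.54 for KIF18A. Only the pools of KIF20A overlapped, since control pool L, at 77.5 CPM, matched HCQ-evolved pools L and M, at 77.3 and 77.9 CPM. In CCL218 they lay between -0.076 (KIF18A) and 0.64 (KIF14), with adjusted p from 0.193 to 0.773. With position as a block, KIF14 (adjusted p = 0.0276) and KIF20B (adjusted p = 0.0457) were called higher there. KIF18A was at 20.6, 22.2 and 24.4 CPM in control and 18.04, 23.96 and 21.9 CPM in HCQ-evolved CCL218 pools, and it was the mitotic kinesin with a value below 0, which became 0.033 at most with a pool left out.

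By pools, 10 of 11 mitotic kinesins were apart and higher in OVCAR3 (13% of all genes tested) and 7 of 11 in CCL218 (18.6%), and none was apart and lower. In RNA from whole pools, more dividing cells and more RNA per dividing cell cannot be told apart. Markers of the G2 and M phases moved with the mitotic kinesins. The mean log2 CPM of 15 such markers was 6.32, 6.43 and 6.33 in control OVCAR3 pools and 7.19, 7.25 and 7.67 after evolution, and in CCL218 6.33, 6.62 and 6.59 and then 6.92, 6.97 and 7.00. All 15 were above 0 in both lines (51.6% and 48.3% of all genes tested), with median log2 fold changes of 1.06 and 0.45. The part of cell cycle phase in the mitotic kinesin levels was not tested.

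The change of each gene was then compared between lines as an interaction in a fit of all 12 libraries. All 11 mitotic kinesins had a smaller change in CCL218 than in OVCAR3, with a median difference of -0.54 against -0.030 over 12613 genes, but 0 of 32 kinesins passed after adjustment (0.872% of all genes did, 0.69% higher and 0.182% lower). The same direction was seen in related lists described below. It held for all 15 G2 and M markers (median -0.61), all 18 partners of the mitotic kinesins (-0.58) and all 14 G1 and S markers (-0.44). Before adjustment p was under 0.05 for 6 kinesins. KIF2C (-0.51), KIF18A (-0.79), KIF22 (-0.60) and KIF23 (-0.65) were lower in this difference (3.7% of all genes), and KLC4 (0.74) and KIF16B (0.91) were higher (5.41%). The Wald test of DESeq2 called KIF2C and KLC4. Without HCQ-evolved OVCAR3 pool R the median difference was -0.19 and 10 of 11 mitotic kinesins lay below 0, KIF14 being at 0.071.

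**Figure D4:**
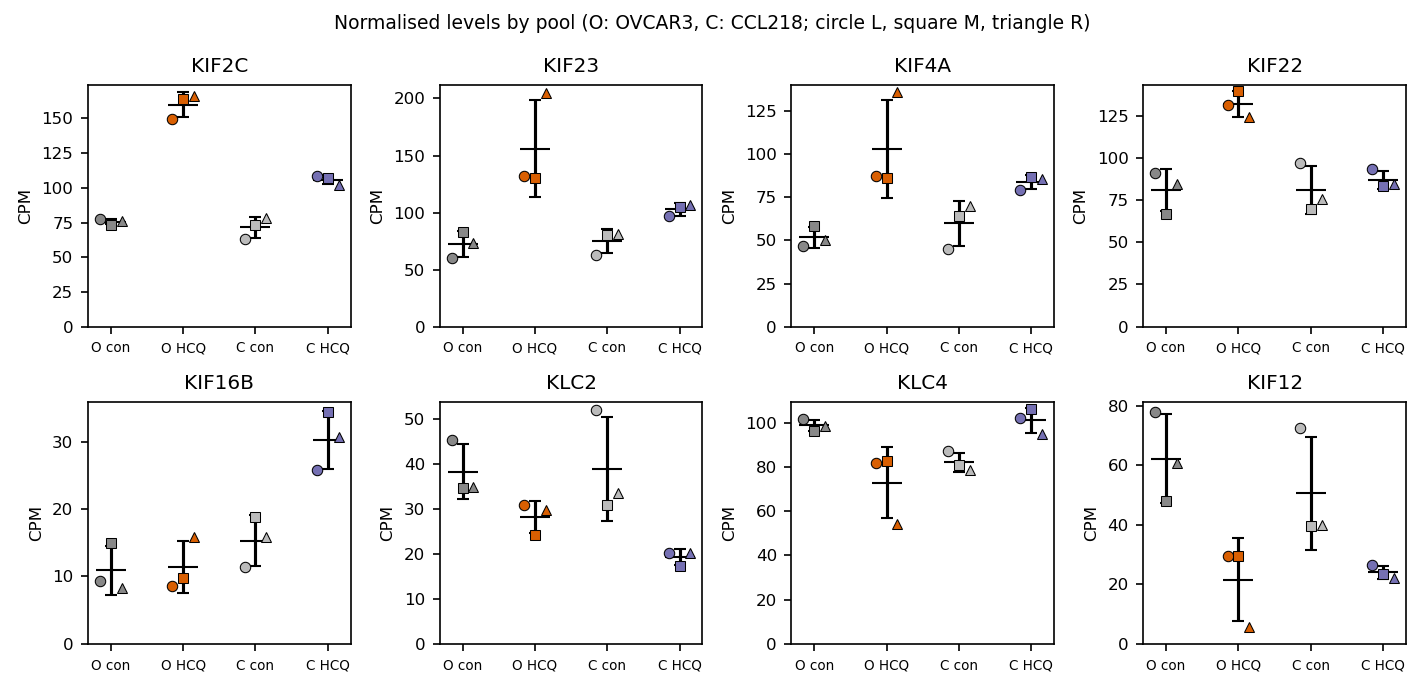
Normalised levels in CPM by pool of 8 kinesin genes named in the text, 4 mitotic (top) and 4 transport or other (bottom); O is OVCAR3, C is CCL218, con is control, symbols are pools and bars are the mean and SD of 3 pools. KIF2C is apart and higher in both lines, KIF16B and KLC2 move in opposite directions in CCL218, and KLC4 is lower in OVCAR3 and higher in CCL218.

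Among transport kinesins, the calls in CCL218 had opposite directions. KIF16B (chr20:16272104-16573448, minus strand), which moves early endosomes towards the cell edge, was at 11.3, 18.8 and 15.8 CPM in control and 25.8, 34.3 and 30.6 CPM in HCQ-evolved CCL218 pools. The groups did not overlap, and the log2 fold change was 0.98 ± 0.21 (SE; adjusted p = 0.0394). In OVCAR3 it was at 9.34, 14.99 and 8.33 and 8.60, 9.71 and 15.9 CPM, which overlapped, with a log2 fold change of 0.087 ± 0.34 (SE; adjusted p = 0.929). The CCL218 call was lost when control pool R or any HCQ-evolved pool was left out (adjusted p up to 0.213), and with all 12 libraries in one fit (adjusted p = 0.0799).

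KLC2 (chr11:66257294-66267860, plus strand) is a light chain of kinesin-1, the subunit that binds cargo and holds the motor folded and inactive. It was at 52.1, 30.9 and 33.7 CPM in control and 20.3, 17.2 and 20.3 CPM in HCQ-evolved CCL218 pools, and its log2 fold change was -1.02 ± 0.22 (SE; adjusted p = 0.0406). Control pool L was the highest by far, and without it the log2 fold change was -0.76 and still called (adjusted p = 0.00116), whereas the call was lost without control pool R or any HCQ-evolved pool (adjusted p up to 0.219). In OVCAR3 the pools were apart in the same direction, at 45.3, 34.8 and 34.9 and then 30.9, 24.2 and 29.7 CPM, with a log2 fold change of -0.42 ± 0.20 (SE; adjusted p = 0.354).

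The other light chains were not called. KLC4 (chr6:43040777-43075095, plus strand) was at 102, 96.3 and 98.5 CPM in control OVCAR3 pools and at 81.8, 82.7 and 54.4 CPM in HCQ-evolved pools, all lower. In CCL218 it was at 86.99, 80.8 and 78.4 CPM in control and 102, 106 and 94.9 CPM in HCQ-evolved pools, all higher. Neither change passed the threshold, with log2 fold changes of -0.42 ± 0.20 (SE; adjusted p = 0.361) and 0.30 ± 0.12 (SE; adjusted p = 0.166), nor did the interaction (adjusted p = 0.206). KLC3 had a log2 fold change of -0.46 in OVCAR3, where its pools overlapped, and of -0.44 in CCL218, where they were apart (adjusted p = 0.611 and 0.161). KLC1, a further light chain, had values of 0.17 and 0.085 (adjusted p = 0.659 and 0.705). Exons of KLC4 overlap CUL7 and MRPL2 on the opposite strand, those of KLC3 overlap ERCC2, and those of KLC1 overlap XRCC3 (5756 bases) and BAG5. The sources used here do not say whether counting used strand, so reads of such neighbours cannot be told apart.

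KIF5B (chr10:32009015-32056425, minus strand), the kinesin-1 heavy chain to which the light chains bind, was at 151, 290.5 and 229 CPM in control and 229.6, 228 and 375 CPM in HCQ-evolved OVCAR3 pools, which overlapped. In CCL218 the values were 167, 365 and 356 and 369, 427 and 432 CPM. Control CCL218 pool L, the pool poorest in long transcripts, was at less than any other pool of that line, and the adjusted p was 0.658 and 0.344.

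The heterotrimeric kinesin-2 motors drive transport into cilia and of endosomes. KIF3B was at 110.2, 156 and 150.3 CPM in control and 112, 118 and 126 CPM in HCQ-evolved OVCAR3 pools, with overlap, and its adjusted p was 0.649 there and 0.687 in CCL218. KIF3C was at 10.8, 14.4 and 13.1 CPM in control and 7.17, 7.04 and 9.002 CPM in HCQ-evolved CCL218 pools, all lower, with a log2 fold change of -0.72 ± 0.17 (SE; adjusted p = 0.0539). It was called with position as a block (adjusted p = 0.0255). In OVCAR3 it was at 9.88, 15.9 and 9.68 and 7.38, 5.52 and 22.03 CPM, with HCQ-evolved pool R above and pools L and M below every control pool, so that its log2 fold change of 0.0074 became -0.87 without that pool (adjusted p = 0.138). KIF3A, the partner of KIF3B, had values of 0.16 and -0.016.

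The remaining transport kinesins were KIF1B and KIF1C, which carry mitochondria, vesicles and dense-core granules, and KIF13A and KIF13B, which carry endosomal and membrane proteins. None was called in either line, and their log2 fold changes ranged from -0.25 (KIF13A) to 0.21 (KIF1B) in OVCAR3 and from -0.23 (KIF1C) to 0.43 (KIF13A) in CCL218. By pools, 1 of 13 transport kinesins was apart and higher (13% of all genes) and 2 were apart and lower (12.7%) in OVCAR3. In CCL218 3 were higher (18.6%) and 4 lower (17.3%).

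Of the other kinesins, KIF12 (chr9:114086126-114099292, minus strand), a motor of kidney and liver epithelia, had the lowest log2 fold change of the 32 tested kinesins in both lines. It was at 77.7, 47.9 and 60.8 CPM in control OVCAR3 pools and 29.6, 29.6 and 5.63 CPM in HCQ-evolved pools, with pool R far below the others. The CCL218 pools had 72.4, 39.5 and 39.9 CPM and then 26.4, 23.5 and 22.3 CPM. The pools did not overlap in either line, and the log2 fold changes of -1.51 ± 0.56 (SE; adjusted p = 0.230) and -1.08 ± 0.26 (SE; adjusted p = 0.0541) did not pass, but the former did without pool R (-1.06, adjusted p = 0.0399). With position as a block the CCL218 value was called (adjusted p = 0.00669). DESeq2 called KIF12 lower in both lines.

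KIF9, a motor of motile cilia, was likewise apart and lower in both lines, at 11.6, 7.39 and 11.5 and then 7.04, 7.18 and 4.27 CPM in OVCAR3 and 9.35, 9.63 and 10.9 and then 6.22, 7.24 and 7.95 CPM in CCL218. Its adjusted p was 0.273 and 0.113, and its exons overlap KIF9-AS1 and KLHL18 on the opposite strand. KIF2A, a relative of KIF2C that takes microtubules apart at spindle poles, was called in neither line. It was at 29.9, 59.3 and 49.2 and then 56.3, 57.3 and 81.9 CPM in OVCAR3 and 28.4, 78.1 and 78.98 and then 66.8, 74.1 and 79.99 CPM in CCL218, with overlap in both (adjusted p = 0.460 and 0.686), and it shares exon bases with DIMT1 on the opposite strand.

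KIF21B, which restrains microtubule growth, was at 8.49, 9.62 and 5.999 CPM in control and 7.20, 5.31 and 34.1 CPM in HCQ-evolved OVCAR3 pools. The OVCAR3 mean rested on pool R, without which the log2 fold change of 0.99 became -0.35. In CCL218 its pools were apart and higher, at 4.80, 5.40 and 4.78 and then 5.67, 6.73 and 7.98 CPM (adjusted p = 0.181). The centriole motor KIF24 and the cilium-related KIF27 had log2 fold changes of 0.72 and -0.27 in OVCAR3 and 0.11 and 0.22 in CCL218. Their adjusted p was at least 0.398 in both lines. KIF21A had values of 0.65 and 0.25 (adjusted p = 0.503 and 0.707).

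KIF7 (chr15:89608789-89663086, minus strand), a regulator of Hedgehog signalling at the tip of the primary cilium, was the kinesin called between the control groups of the lines. It was at 26.4, 24.01 and 22.9 CPM in control OVCAR3 pools and 16.6, 11.02 and 10.7 CPM in control CCL218 pools, which did not overlap. The difference, CCL218 minus OVCAR3, was -0.94 ± 0.19 (SE; adjusted p = 0.0209) on the log2 scale (3.42% of all genes were called, 1.35% higher and 2.07% lower in CCL218). The call was lost when control OVCAR3 pool L or R, or control CCL218 pool M or R, was left out, and with position as a block (adjusted p = 0.974, or 0.440 with the length and GC trend removed too). At an unadjusted p under 0.05, KIF3A and KIF13A were higher (6.6% of all genes) and KIF7 was lower (7.88%). Within lines KIF7 was not called, at -0.04 and 0.086 (adjusted p = 0.948 and 0.807), and its exons overlap TICRR on the opposite strand. No mitotic kinesin was called between control groups, where their differences ranged from -0.084 (KIF2C) to 0.55 (KIF20B).

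Per kilobase of transcript, a scale on which genes can be compared, KIF5B was the highest kinesin over all libraries, at 38.1 and 50.4 CPM per kilobase in control OVCAR3 and CCL218 and 47.3 and 69.8 after evolution. KIF22 came next (38.8, 38.8, 63.4 and 41.8 in the same order), then KLC4, KIF1C and KIF2C. In HCQ-evolved OVCAR3, KIF22 and KIF2C, at 63.4 and 55.9 CPM per kilobase, had higher means than KIF5B, whose pool R lay within or above their pools. The lowest tested members were KIF21B and KIF27, both under 2 CPM per kilobase in every group. The order of neighbours was not tested.

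**Figure D5:**
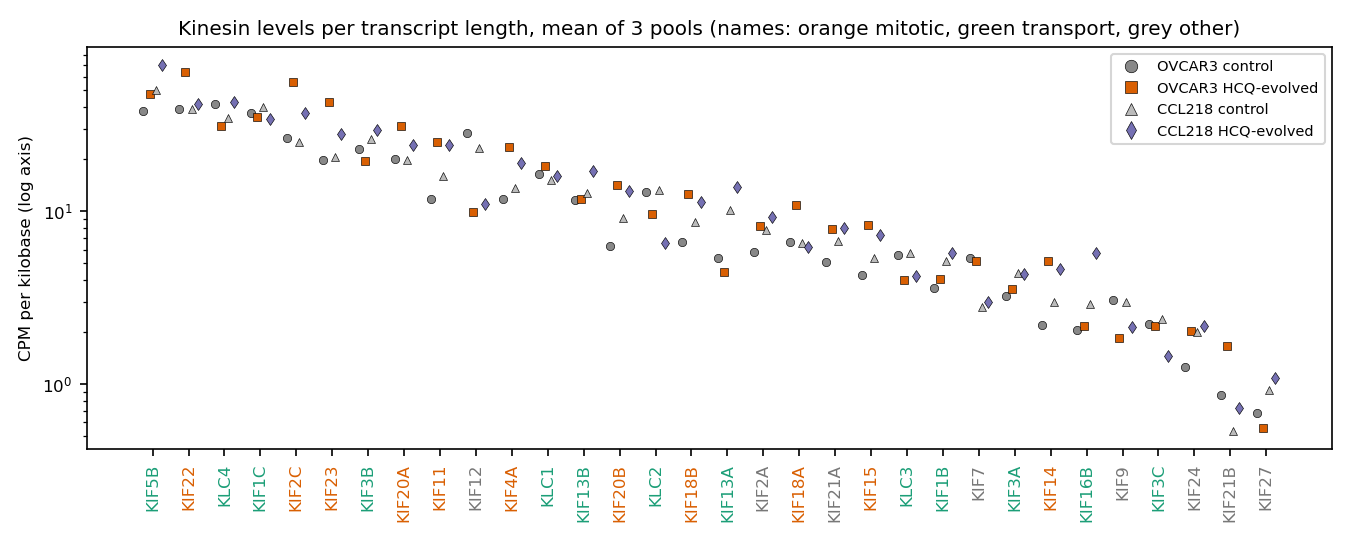
Level in CPM per kilobase of transcript (log axis) of the 32 tested kinesin genes, each symbol being the mean of 3 pools of a group; genes are ordered by their mean over all 12 libraries. All 11 mitotic kinesins have the HCQ-evolved OVCAR3 symbol on top, while KIF12 has both HCQ-evolved symbols below both control symbols. For KIF11, KIF14, KIF15, KIF18B and KIF20B the top place rests on pool R. Their HCQ-evolved OVCAR3 pools L and M lay below the HCQ-evolved CCL218 mean.

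Untested members numbered 11. KIF2B, a testis-rich mitotic kinesin, had 0 counts in every library, which allows up to 3 counts per library by counting error alone. With it, the neuronal motors KIF1A and KIF5A and the genes KIF6, KIF25, KIF26A and KIF26B had 10 counts or fewer in every library, which makes 7 members near or at the floor. KIF5C reached 14 and KIF4B 16 counts. KIF17 and KIF19 stood out among the untested members after their values were seen. KIF17, a kinesin-2 motor of cilia and dendrites, had 8, 4 and 10 counts in control and 33, 21 and 20 counts in HCQ-evolved CCL218 pools. KIF19, which trims the tips of motile cilia, had 20, 16 and 58 counts in control and 2, 0 and 0 counts in HCQ-evolved OVCAR3 pools. Without the filter KIF19 was called lower in OVCAR3 (adjusted p = 0.00324), while KIF17 was not called.

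Kinesins whose names fall outside the rule were looked at beside them. CENPE, the kinetochore kinesin, averaged 39.6 ± 12.02 CPM (SD, n = 3 pools) in control and 70.5 ± 48.96 CPM in HCQ-evolved OVCAR3, and 49.8 and 56.7 CPM in CCL218 (adjusted p = 0.436 and 0.538). KIFC3, a minus-end motor, had an adjusted p of 0.0546 in CCL218, with a log2 fold change of -0.48, and was lower in control CCL218 than in control OVCAR3 (-0.63 ± 0.15 SE, adjusted p = 0.0404). Of 6 such genes 5 were tested and 0 called in either line by edgeR. At an unadjusted p under 0.05, 0 differed in OVCAR3 and 1 was lower in CCL218 (12.7% of all genes).

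Partners of the mitotic kinesins showed values like theirs. Of 18 such genes 17 were above 0 in OVCAR3 (51.6% of all genes tested) and 15 in CCL218 (48.3%). Their median log2 fold changes were 1.01 and 0.31. In OVCAR3 0 passed adjustment with edgeR, although 14 were higher at an unadjusted p under 0.05 (8.38% of all genes). The smallest adjusted p was that of KNSTRN (0.93, adjusted p = 0.0505). In CCL218 the spindle assembly gene HMMR was called higher (0.59 ± 0.13 SE, adjusted p = 0.0440), where 3.82% of all genes were.

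Of 15 G2 and M phase markers, 6 were called higher in OVCAR3 (0.647% of all genes tested were) and 2 in CCL218 (3.82%). The mitotic kinase gene NEK2 (1.21 ± 0.18 SE, adjusted p = 0.0239) and CDK1, the kinase that starts mitosis (1.29 ± 0.21 SE, adjusted p = 0.0318), were called in OVCAR3, as was AURKA, the spindle pole kinase gene (1.01, adjusted p = 0.0309). NEK2 and CDK1 were also called in CCL218 (0.73 and 0.63, adjusted p = 0.0192 and 0.0251). Markers of G1 and S moved less by value. Their median was 0.32 in OVCAR3 and -0.057 in CCL218. All 14 were above 0 in OVCAR3 (51.6% of all genes tested), and 6 of 14 in CCL218 (48.3%). Their mean log2 CPM was 5.67, 5.75 and 5.78 in control OVCAR3 pools and 6.13, 6.08 and 6.10 in HCQ-evolved pools, without overlap. The CCL218 pools overlapped. In OVCAR3 only the nucleotide-synthesis gene RRM2 of 14 was called, which was higher (1.08 ± 0.20 SE, adjusted p = 0.0484). In CCL218 0 of 14 were called, and 2 were lower at an unadjusted p under 0.05 (12.7% of all genes). TTTGAA was present in the promoter windows of 8 of 12 G2 and M markers with a window and of 0 of 12 G1 and S markers. CCAAT was present in 11 of 12 and 8 of 12, against 39.7% of all genes with a window and 43.2% of genes tested in OVCAR3.

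Among 14 regulators of mitotic genes, CDKN1A, the cell cycle inhibitor p21, was called in opposite directions. It was at 59.98, 66.3 and 69.2 CPM in control and 28.04, 21.5 and 26.2 CPM in HCQ-evolved OVCAR3 pools, with a log2 fold change of -1.35 ± 0.19 (SE; adjusted p = 0.0218). The CCL218 pools had 19.1, 19.2 and 20.7 and then 52.4, 41.5 and 40.9 CPM, with 1.19 ± 0.15 (SE; adjusted p = 0.00603), and the interaction passed (adjusted p = 0.000539). The other 13 regulators were not called in either line (1.86% of all genes tested were called in OVCAR3 and 6.46% in CCL218). FOXM1, an activator of late cell cycle genes, had values of 0.999 and 0.23 (adjusted p = 0.222 and 0.463).

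Genes that work with transport kinesins were mostly not called (1.86% of all genes tested were called in OVCAR3 and 6.46% in CCL218). Of 21 cargo adaptors, 17 were tested in OVCAR3 and 16 in CCL218. SYBU, which links kinesin-1 to vesicles, and CLSTN1, which binds its light chains, were called higher in CCL218 (0.87 ± 0.17 SE, adjusted p = 0.0335 and 0.71 ± 0.15 SE, adjusted p = 0.0403) and 0 in OVCAR3, where 2 had an unadjusted p under 0.05. Of 13 genes of the BORC and ARL8 machinery, which couples lysosomes to kinesins, 11 were tested, 0 were called in either line and 0 had an unadjusted p under 0.05. The largest differences by p there were BORCS5 in OVCAR3 (0.31, adjusted p = 0.563) and BORCS8 in CCL218 (-0.61, adjusted p = 0.232). Of 17 microtubule proteins that regulate kinesins 11 were tested and 0 called in either line, at an unadjusted p under 0.05 for MAPRE2 in OVCAR3 (-0.71, adjusted p = 0.286) and for 0 in CCL218. Among 22 tested genes of dynein and dynactin, the motor for the opposite direction, the light chain gene DYNLT3 was called lower in CCL218 (-0.92 ± 0.13 SE, adjusted p = 0.0109). Among 18 tested genes of ciliary transport, IFT22 was called lower there (-0.63 ± 0.13 SE, adjusted p = 0.0342), and in OVCAR3 0 genes of either list were called, with 2 and 1 at an unadjusted p under 0.05.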

How the data were processed

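The authors deposited raw counts for each gene symbol, with no normalization. They aligned reads by STAR to hg38, discarded duplicates (RmDup) and counted genes by featureCounts, in versions not given in the sources used here. Removing duplicates lowers counts most for highly expressed genes. All 12 count columns were matched to samples by their titles (0 columns were left without one). Libraries were scaled by TMM, and a gene needed 1 CPM or more in 3 or more libraries. Each line was fitted alone by edgeR 4.0.16 (robust quasi-likelihood F test, R 4.3.3), with Benjamini-Hochberg adjustment over all genes and a threshold of 0.05. The interaction and the comparison of control groups came from a fit of 12 libraries. CPM values are on the TMM scale of all 12 libraries, and standard errors were derived from the F statistic. Scripts were tested on simulated data.

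The members, their classes, the gene lists and the tests were chosen with earlier results of these data known. Named members are those called in any comparison, the 4 with the smallest p per class and line, and the 2 per class with the highest level per kilobase. Of the other lists, up to 3 called genes, or else the one with the smallest p, are named, and others were named after their values were seen.

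Gene positions and lengths came from GENCODE 44 on hg38, where 25763 of 28278 symbols (91.1%) were matched. Promoter sequences came from RefSeq. In an alternative, each library’s dependence on transcript length and GC content (splines with 5 degrees of freedom per library) was removed. Plate position could pair pools. After group means were removed, same-position pools of CCL218 correlated across genes at 0.51 (L), 0.23 (M) and 0.19 (R), so CCL218 was read as paired (each over 0.1). However, control M correlated more with HCQ-evolved R, at 0.43, and control R with HCQ-evolved M also passed, at 0.11. These values therefore do not show pairing by position, and the part of the trend with transcript length in them was not tested. The replicates of a group differed by far more than sampling noise, so none was a repeat deposit. Counting floors and ranges cover counting error only. Other alternatives were RLE factors, no filter, the Wald test of DESeq2 1.42.0, all 12 libraries in one fit, other class membership, and leaving out each pool.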

Additional observations from a re-analysis of the deposited data

Results flagged for a closer look

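KLC4 was flagged because all its HCQ-evolved pools lay below the control pools in OVCAR3 and above them in CCL218. The change in CCL218 minus that in OVCAR3 was 0.74 on the log2 scale (standard error 0.23). The interaction test gave an unadjusted p of 0.00698 and an adjusted p of 0.206 (edgeR), so the difference did not pass adjustment over all genes. It passed with DESeq2 (0.73, adjusted p = 0.0415) and after removal of the length and GC trend (0.69, adjusted p = 0.0347), and with position as a replicate block it was 0.76 (adjusted p = 0.453). Each group was 3 pools of a single plate, and exons of KLC4 overlap those of CUL7 and MRPL2, whose part in the values was not tested.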

How the results depend on the processing

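The number of kinesins called depended on the fit more than their directions did. In OVCAR3, against 1 call, 7 were made with all 12 libraries in one fit (all mitotic: KIF2C, KIF4A, KIF11, KIF15, KIF18A, KIF22 and KIF23), 5 without the filter (4 higher, 1 lower), 8 with DESeq2 (7 higher, 1 lower), 7 with the length and GC trend removed, and 4 with a replicate block and that trend removed, a setting chosen after seeing the data. The replicate block alone gave 0 calls in OVCAR3 (11 at an unadjusted p under 0.05), where same-position pools correlated at 0.40 (L), -0.66 (M) and -0.48 (R) and were thus not read as paired. Leaving out single OVCAR3 pools gave 0 to 3 calls: 3 without HCQ-evolved R and 0 without any other. In CCL218, against 3 calls, DESeq2 made 10 (6 higher, 4 lower), the replicate block 8 (5 higher, 3 lower), removal of the length and GC trend 11 (7 higher, 4 lower) and both together 10, while all 12 libraries in one fit made 2 (KIF16B was lost) and no filter 3 (KIF12 in place of KIF2C). Leaving out single CCL218 pools gave 0 to 12 calls: 12 without control L, 2 without control M and 0 without any other. For the interaction, against 0 calls, DESeq2 made 2 (KIF2C and KLC4) and removal of the trend 3 (with KIF22). Between control groups, against 1 call, there were 2 without the filter (KIF7 and KIF19), 0 with the replicate block with or without the trend, and 0 to 2 with single pools left out (2 without control CCL218 L, KIF7 and KIF13A). With the trend removed, the share of all genes called rose too, from 1.86% to 8.72% in OVCAR3 and from 6.46% to 19.3% in CCL218. With the replicate block 7.82% of all CCL218 genes were called higher and 6.43% lower, against 3.82% and 2.64%. For the other settings the share of all genes called is not given here, so those kinesin counts cannot be set against it. The causes were not tested.

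The mitotic median stayed above 0 in every alternative. With single pools left out it ranged from 0.64 to 1.14 in OVCAR3 (lowest without HCQ-evolved R) and from 0.33 to 0.54 in CCL218. Without HCQ-evolved OVCAR3 R the mitotic median of the interaction was -0.19 against -0.54, and with any other pool left out it was -0.69 to -0.46. The mitotic minus transport difference ranged from 0.89 to 1.07 and from 0.25 (without control M) to 0.41 (without control L). The transport median ranged from -0.24 (without HCQ-evolved R) to 0.19 in OVCAR3 and from -0.076 (without control L) to 0.29 in CCL218.

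Some signs reversed. KIF3C in OVCAR3 was -0.018 with 12 libraries in one fit, -0.0018 with RLE, -0.0033 with DESeq2, -0.24 with the replicate block, -0.013 with the trend removed and -0.16 with both, and -0.87 to 0.35 with single pools left out. KIF7 in OVCAR3 was 0.00045 without the filter, 0.098 with the trend removed, 0.084 with block and trend, and -0.21 to 0.074 with pools left out. KIF24 in CCL218 was -0.0011 with the trend removed and -0.00026 with block and trend, and KIF27 in CCL218 was -0.0077 with the trend removed. With pools left out, KIF16B ranged from -0.24 to 0.40 and KIF21B from -0.35 to 1.40 in OVCAR3, and in CCL218 KIF3B from -0.076 to 0.31, KIF2A from -0.10 to 0.46 and KIF7 from -0.030 to 0.31. The same held for KIF1B (-0.42 to 0.58 in OVCAR3, -0.13 to 0.50 in CCL218), KIF21A (-0.11 to 0.58 in CCL218), KIF18A (-0.16 to 0.033 in CCL218), KIF3A (-0.012 to 0.25 in OVCAR3, -0.18 to 0.084 in CCL218), KIF13B (-0.14 to 0.20 in OVCAR3) and KIF1C (-0.13 to 0.026 in OVCAR3). Pools of a single plate per group, the trend with transcript length, and the passage labels limit what these comparisons can show, and levels under 1 CPM were read only as counts.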
